A study of Mus musculus with 12 samples.

Results

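The conjugation enzymes of mouse kidney cortex were examined: the glutathione transferases (Gst), the microsomal glutathione transferases (Mgst), the UDP-glucuronosyltransferases (Ugt) and the sulfotransferases (Sult). Members were chosen by gene symbol alone, as Gst followed by a, m, k, o, p, t or z and a digit, or as Mgst, Ugt or Sult followed by a digit. The rule found 45 of 13465 genes, which held 85 of 25790 deposited transcript rows, and all 45 were annotated as protein coding. The annotation used, GENCODE M21 on mouse build GRCm38, holds 75 genes with such symbols, of which 68 are protein coding, so the remaining ones (among them Gstm3, Sult1e1 and Ugt2b1) were not analysed here. Of the 45 members, 43 passed the filter on low values (at least 1 FPKM in at least 3 libraries), and Mgst2 and Sult4a1 did not.

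RNA from renal cortex of mice was sequenced in 4 groups of 3 libraries. WT sham and WT IRI were wild type, and CKO sham and CKO IRI carried a knockout of Gpx3, the gene of a secreted glutathione peroxidase, restricted by design to renal tubular epithelial cells. IRI groups had 30 min of ischemia of both kidneys and then 48 h of reperfusion, and sham groups had the sham operation. The Cre driver, strain, age and sex of the mice, whether the wild-type mice carried the floxed allele, and the time of sampling after sham surgery were not given in the sources used here. Nothing states that each library came from its own mouse, so every p-value measures the spread between these libraries, which may be technical. Values of single libraries are given in the order of their label numbers, which are 1, 2 and 3 in both sham groups, 13, 24 and 49 in WT IRI, and 7, 15 and 29 in CKO IRI.

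Conjugation enzymes attach a water-soluble group to reactive or fat-soluble compounds. Glutathione transferases add the tripeptide glutathione to electrophiles such as the aldehydes formed by lipid peroxidation, UDP-glucuronosyltransferases add a sugar from a UDP-sugar, and sulfotransferases add sulfate from the donor PAPS. The proximal tubule of the kidney carries much of this activity outside the liver, takes up the conjugates, and trims glutathione conjugates into mercapturates for the urine.

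Levels are in FPKM, fragments counted per length of transcript and per depth of the library, summed over the transcripts of a gene. This unit is scaled by length, so it permits comparison of levels between genes. Changes are differences of group means of log2(FPKM + 1), which understates the change of genes at low levels. They were tested with limma over all 12469 genes that passed the filter, two-sided, and a gene was said to rise or fall at a Benjamini-Hochberg adjusted p under 0.05.

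Library totals lay between 391002 and 422328 FPKM. The depth behind these values is unknown. Gpx3, the check of the labels, stood at 5664, 4476 and 5371 FPKM in WT sham and at 2501, 3037 and 3299 FPKM in CKO sham. After injury it stood at 2788, 3568 and 1075 FPKM in WT IRI and at 3723, 3025 and 2779 FPKM in CKO IRI. The sham groups did not overlap (adjusted p = 0.135), whereas the injured groups did, so genotype after injury is given below only as the libraries were labelled. The tissue was called kidney, although the extraction text spoke of joint capsule. All 13 proximal tubule markers on the list used had values, at a summed 7831 to 8045 FPKM in WT sham, while 1 of 5 joint and cartilage markers had values and reached at most 1.63 FPKM. WT IRI 13 stood apart by its mitochondrial transcripts, which made up 3.94% of its total against 7.36% to 12.32% in the other libraries.

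The members together amounted to 3878, 3627 and 3505 FPKM in WT sham and to 3404, 3915 and 4068 FPKM in CKO sham. Their sums after injury were 3015, 2561 and 2699 FPKM in WT IRI, and 2994, 3363 and 3815 FPKM in CKO IRI. Every WT IRI library was thus below every WT sham library, whereas CKO IRI overlapped CKO sham. The 5 members with the highest mean level over all libraries, Gsta2, Ugt3a2, Gstm1, Sult1d1 and Ugt1a2, held 44.5% of the members' FPKM, and the first 10 held 68.9%. In WT sham, Gsta2 was highest, above Ugt3a2 and Ugt1a2, whose libraries overlapped, and these were above Gstm1 and Sult1d1, whose libraries overlapped as well.

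After ischemia-reperfusion in wild-type mice, the deepest falls that passed the test were of Ugt genes. Those that rose were Ugt2b37, Sult2b1, Gstp2, Gstp1, Gstm6, Sult5a1 and Gstm5. Of 20 Gst members tested, 4 rose and 3 fell, and of 6 Sult members, 2 rose and 1 fell. Among finer families such as Gsta, Gstm and Ugt1, Ugt2 alone had members that passed the test in both directions. Of 43 members tested, 7 rose and 9 fell. Over all genes tested, 23.5% rose and 11.8% fell. The share of members that fell was therefore above the background, and the share that rose was below it. The median change of the members was -0.18 on the log2 scale, against 0.12 for all genes. That median of all genes became 0 with TMM scaling, and the 2936 genes that rose and 1472 that fell became 2186 and 2046, so changes are best read relative to this shift. With TMM scaling, 6 members rose and 12 fell, or 27.9% that fell beside 16.4% of all genes. Without WT IRI 13, 5 members fell, 11.9% of those tested beside 7.21% of all genes. Without WT IRI 24, 4 rose and 4 fell, or 9.3% each way, beside 11.0% of all genes that rose and 3.88% that fell. When each library had its own weight, 14 fell, or 32.6% beside 15.7% of all genes.

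**Figure D1:**
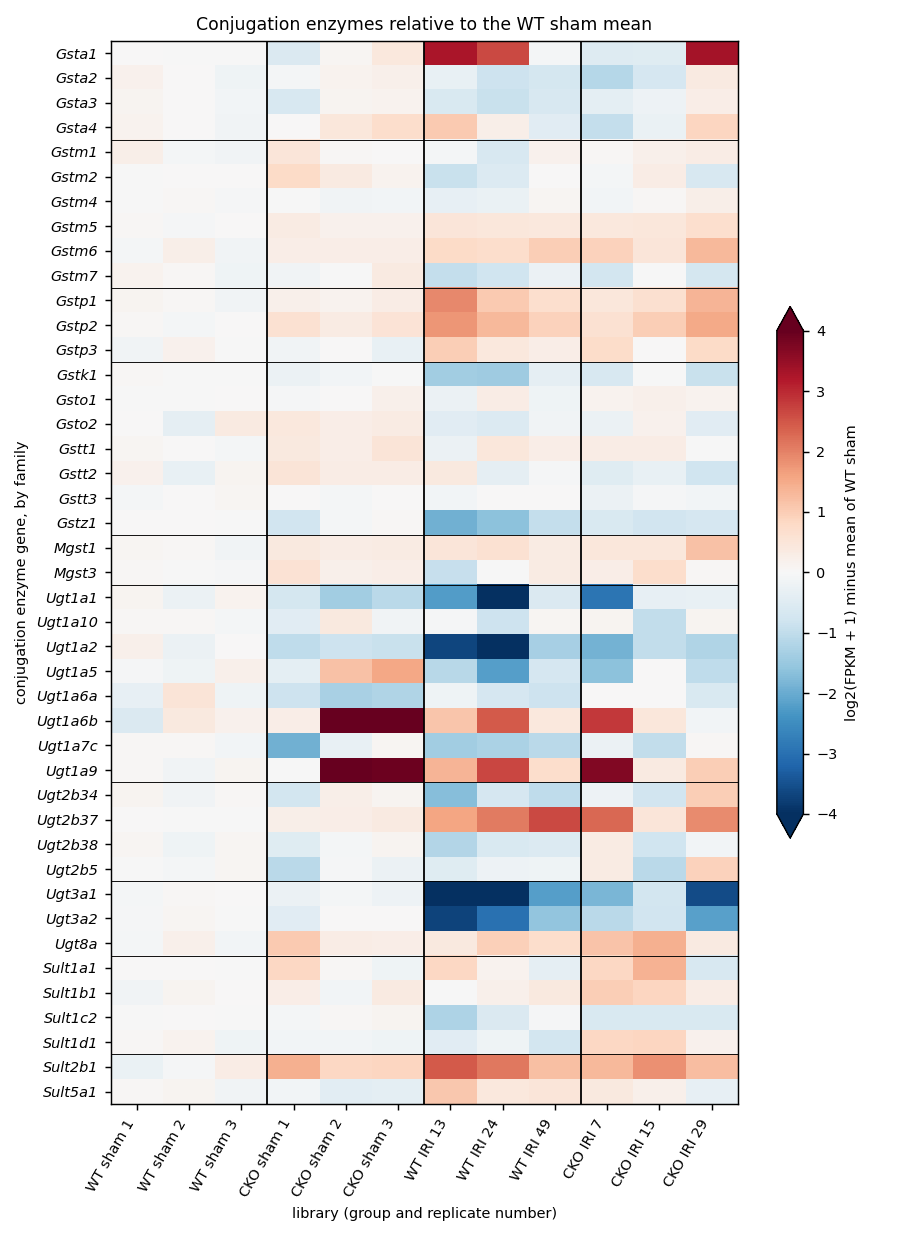
Each row is one of the 43 conjugation enzyme genes tested, grouped by family, and each column is a library. Colour gives log2(FPKM + 1) minus the mean of the WT sham libraries, and colours saturate beyond the ends of the scale. The Ugt3a1, Ugt3a2 and Ugt1a2 rows are blue in all WT IRI libraries, and the Gstp1 and Gstp2 rows are red there.

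In mice labelled as knockouts, fewer members passed the test after injury. Here 2 of 43 members rose, Sult1d1 and Ugt2b37, and 1 fell, Gstt2, beside 6.6% of all genes that rose and 2.02% that fell. The members' median change was 0.01 on the log2 scale and that of all genes was 0.08. These counts of 2 and 1 are near the background and are not a result about the members as a group. They also moved with the fit: 9 members rose and 10 fell when each library had its own weight, beside 18.2% and 10.2% of all genes. None rose with TMM scaling, beside 5.38% of all genes, and 7 fell without CKO sham 1, beside 4.01%. No member passed the test once CKO sham 2, CKO sham 3 or CKO IRI 7 had been left out. In those fits 2.78%, 2.61% and 1.79% of all genes rose, and 0.531%, 0.555% and 0.241% fell. The rises were lost when WT sham 1 or WT IRI 13 was omitted, where 5.67% and 5.74% of all genes rose. When WT IRI 49 was omitted, 4 members fell, beside 2.51% of all genes. Over the 5 comparisons made, 18 members passed the test at least once and 25 never did, and Ugt2b37 alone passed it in both injury comparisons.

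**Figure D2:**
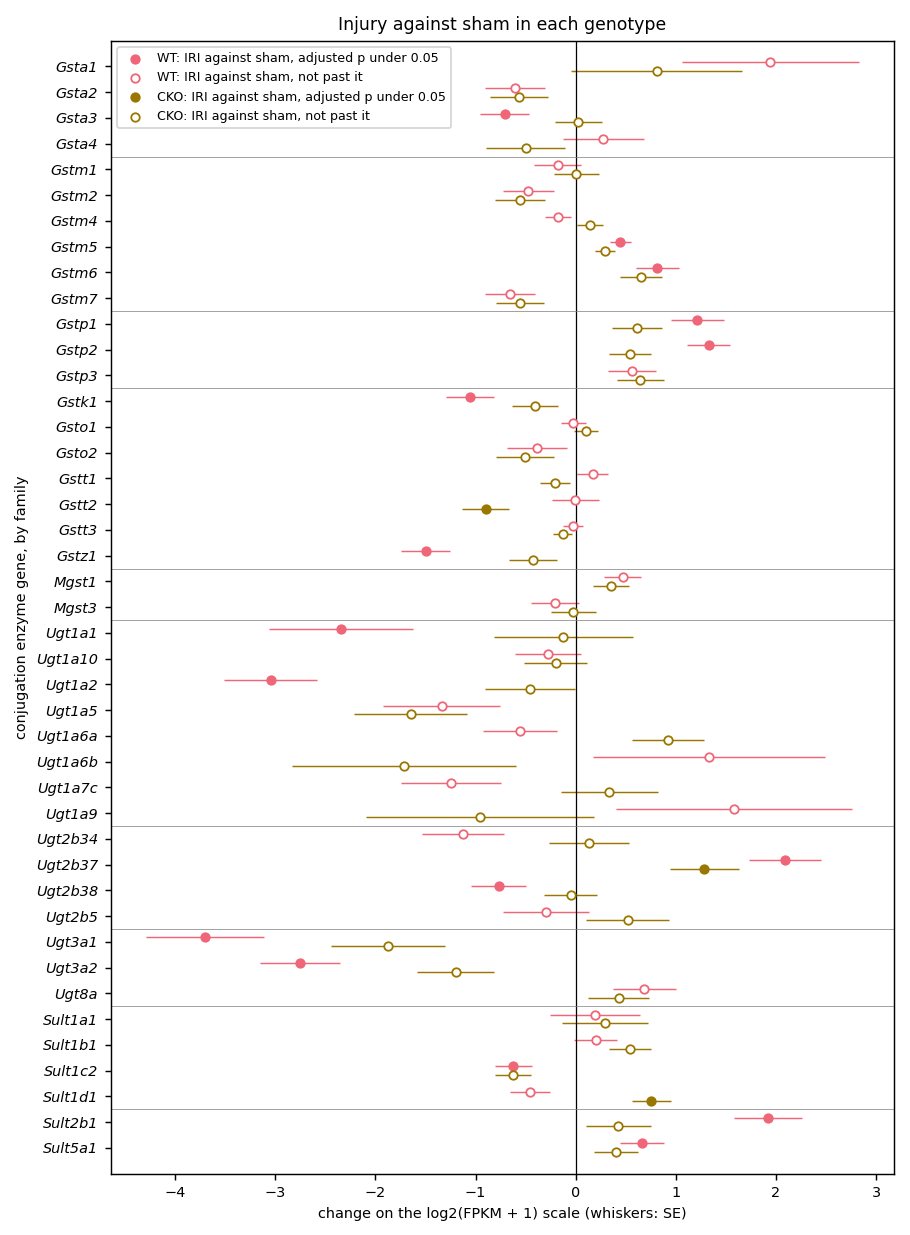
Change from sham to injury for each of the 43 members, on the log2(FPKM + 1) scale with its SE, in WT (red) and CKO (brown) libraries. Filled points passed an adjusted p of 0.05. The 4 filled points farthest to the left are Ugt3a1, Ugt1a2, Ugt3a2 and Ugt1a1, all in WT, and Ugt2b37 is the one gene filled in both genotypes.

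The alpha-class glutathione transferases, which act on lipid peroxidation products and steroids, made up the largest family by level. Gsta2 stood at 646, 580.3 and 513 FPKM in WT sham, 545, 641 and 658 in CKO sham, 474, 323 and 355 in WT IRI, and 263, 361 and 739 in CKO IRI. WT IRI was below WT sham in every library, but the change of -0.61 (SE 0.30, limma adjusted p = 0.138) did not pass the test. Gsta3 stood at 77.0, 72.8 and 66.7 FPKM in WT sham, 45.9, 78.0 and 79.0 in CKO sham, 47.0, 38.6 and 46.0 in WT IRI, and 55.0, 62.7 and 86.5 in CKO IRI. It was lower in every WT IRI library than in any WT sham library, with no such gap between the CKO groups. It fell by 0.71 on the log2 scale in WT (SE 0.25, limma adjusted p = 0.0441). That call was lost without any one of WT sham 1, WT sham 2, WT IRI 13, WT IRI 24, WT IRI 49 or CKO IRI 15, with adjusted p between 0.0582 and 0.255.

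Gsta1, a close relative of Gsta2 and named here after its values were seen, split the injured libraries. It stood at 20.5, 20.3 and 20.3 FPKM in WT sham and at 13.3, 21.4 and 27.8 in CKO sham. Its injured libraries gave 203, 133 and 19.3 FPKM in WT IRI and 14.1, 14.4 and 212 in CKO IRI. WT IRI 13, WT IRI 24 and CKO IRI 29 were far above all other libraries, and the remaining injured libraries were at sham level. The WT change of 1.94 (SE 0.89, limma adjusted p = 0.111) did not pass the test; without WT IRI 49 it was 2.95 (adjusted p = 0.0341). Gsta4, which favours the lipid aldehyde hydroxynonenal, was also higher in these 3 than in the other injured libraries. It stood at 340.4, 192 and 119 FPKM in WT IRI and 84.1, 136 and 299.6 in CKO IRI. Its sham levels were 179, 165 and 148 FPKM in WT and 165, 225 and 264 in CKO. WT IRI 24 was thus within the sham range, and the remaining injured libraries were below all sham libraries. Gsta1 and Gsta2 transcripts were 97.2% identical, and 89.7% of the 50-base stretches of Gsta1 also occurred in other genes, most often Gm3776, so the division of reads among them is uncertain.

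The mu-class enzymes, which share a gene cluster on chromosome 3, were steadier. Gstm1 was the highest of them, at 291, 234 and 222 FPKM in WT sham, 348, 254 and 249 in CKO sham, 236, 157 and 280.1 in WT IRI, and 257, 285 and 306 in CKO IRI. Its 4 groups overlapped, and the WT injury change was -0.18 (SE 0.23). Gstm5 stood at 123, 115 and 121 FPKM in WT sham, 151, 136 and 135 in CKO sham, 169, 163 and 159 in WT IRI, and 161, 165 and 193 in CKO IRI. Its injured libraries were all above its sham libraries of the same genotype, and CKO sham was all above WT sham. Gstm5 rose by 0.45 in WT injury (SE 0.11, limma adjusted p = 0.00817; 0.0701 without WT IRI 24), and its CKO change was 0.29 (SE 0.10, adjusted p = 0.1). Gstm6 stood at 1.88, 2.59 and 1.80 FPKM in WT sham, 2.65, 2.66 and 2.65 in CKO sham, 4.20, 4.01 and 5.05 in WT IRI, and 4.84, 3.31 and 6.52 in CKO IRI. Injured and sham libraries of this low-level gene did not overlap in either genotype. It rose by 0.82 in WT (SE 0.22, limma adjusted p = 0.0149), a call lost without WT IRI 24 (0.0892) or WT IRI 49 (0.0598). The other mu-class members were Gstm2, Gstm4 and Gstm7, whose WT changes lay between -0.66 and -0.18 and did not pass the test.

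The start region of Gstm5 is shown because it rose in WT injury and its window held the core of the antioxidant response element, the motif bound by NRF2 with small Maf proteins. The window runs from 250 bases before to 50 bases after the RefSeq start (GRCm38.p6, chr3:107895604-107895903, plus strand), and capitals mark the match TGACCACGC.
Gstm5: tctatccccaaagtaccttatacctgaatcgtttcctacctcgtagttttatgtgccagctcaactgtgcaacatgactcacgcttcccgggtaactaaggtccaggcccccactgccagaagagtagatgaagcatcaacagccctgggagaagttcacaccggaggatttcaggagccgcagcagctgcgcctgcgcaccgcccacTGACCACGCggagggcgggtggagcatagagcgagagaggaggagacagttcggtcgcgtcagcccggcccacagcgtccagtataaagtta
The letters searched were TGACNNNGC on both strands. They occurred in 12.39% of 32851 RefSeq start windows of this length and in 4 of the 51 windows of the 40 members in that table, those of Gsta3, Gstm5, Gstm7 and Mgst1. Of these genes, Gstm5 rose and Gsta3 fell after injury in WT, and Gstm7 and Mgst1 did not pass the test. Whether a match bears on the direction of change was not tested. A match is a description of the letters, not of a bound site. Other spellings of the element were not searched. The Gstp1 and Gstp2 windows below hold tgagtcagc, with g in place of the c of TGAC, and were not counted. A window without a match may thus hold another form of the element.

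The pi-class enzymes, abundant cytosolic transferases that also bind stress kinases, had the largest rises that passed the test among the glutathione transferases. Gstp1 (chr19:4035407-4037985, minus strand, GRCm38) stood at 139.7, 132 and 117 FPKM in WT sham and at 149, 144 and 158 in CKO sham. Injured libraries held 489, 269.7 and 209 FPKM in WT IRI and 176, 204 and 336 in CKO IRI. All injured libraries were above all sham libraries, with WT IRI 13 the highest. Gstp1 rose by 1.22 in WT (SE 0.26, limma adjusted p = 0.00532), and its CKO change was 0.61 (SE 0.25, adjusted p = 0.165). Its neighbour Gstp2 (chr19:4040285-4046023, minus strand) stood at 12.02, 10.8 and 11.7 FPKM in WT sham, 18.1, 14.8 and 17.1 in CKO sham, 41.3, 29.7 and 22.8 in WT IRI, and 18.3, 23.5 and 34.7 in CKO IRI. Its injured libraries were likewise above all sham libraries, and its CKO sham libraries were above WT sham. Gstp2 rose by 1.33 in WT (SE 0.22, limma adjusted p = 0.00137), and its CKO change was 0.54 (SE 0.21, adjusted p = 0.139). Gstp3, the remaining gene of the cluster, stayed at or below 1.39 FPKM.

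The start windows of both genes are shown because they rose together and are near copies of each other; capitals mark bases that differ or lie opposite a gap in their alignment. Both come from RefSeq (GRCm38.p6, minus strand), Gstp1 at chr19:4037863-4038162 and Gstp2 at chr19:4042172-4042471.
Gstp1: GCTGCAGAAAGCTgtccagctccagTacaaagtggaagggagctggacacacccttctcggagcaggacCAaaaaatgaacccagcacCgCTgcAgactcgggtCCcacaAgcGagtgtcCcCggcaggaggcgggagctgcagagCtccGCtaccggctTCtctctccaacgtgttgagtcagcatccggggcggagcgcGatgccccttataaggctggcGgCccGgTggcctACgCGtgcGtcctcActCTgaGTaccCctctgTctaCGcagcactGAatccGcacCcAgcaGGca
Gstp2: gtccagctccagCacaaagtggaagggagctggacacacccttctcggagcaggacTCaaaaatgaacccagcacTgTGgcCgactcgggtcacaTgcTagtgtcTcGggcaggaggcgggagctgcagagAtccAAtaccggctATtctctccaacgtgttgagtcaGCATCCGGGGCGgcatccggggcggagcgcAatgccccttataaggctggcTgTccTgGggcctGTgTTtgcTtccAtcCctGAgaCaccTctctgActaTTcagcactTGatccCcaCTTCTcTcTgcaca
Of 282 aligned bases 243 were the same (86.2%), 39 differed, and 18 bases of each window lay opposite a gap. The transcripts were 95.7% identical, and 62.3% of the 50-base stretches of Gstp1 and 72.6% of those of Gstp2 occurred in another gene, mostly each other. How far reads of the abundant Gstp1 were counted to Gstp2 cannot be told from the deposited values, so the rise of Gstp2 is uncertain as a separate result.

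Among the other cytosolic classes, the mitochondrial and metabolic enzymes Gstz1 and Gstk1 fell in WT injury, and no theta-class member passed the test there. Gstz1, the zeta-class isomerase of tyrosine breakdown, stood at 122, 122 and 119 FPKM in WT sham and at 71.3, 115 and 126 in CKO sham. The levels after injury were 31.2, 38.2 and 62.4 FPKM in WT IRI and 78.3, 71.3 and 75.7 in CKO IRI. Every WT IRI library was below every other library, whereas CKO IRI overlapped CKO sham through CKO sham 1. It fell by 1.499 in WT (SE 0.25, limma adjusted p = 0.00142), and its CKO change was -0.43 (SE 0.24, adjusted p = 0.307). Gstk1, the kappa-class enzyme of mitochondria and peroxisomes, stood at 61.9, 59.3 and 58.9 FPKM in WT sham, 51.3, 55.8 and 60 in CKO sham, 22.5, 21.8 and 46.2 in WT IRI, and 38.03, 59.3 and 32.1 in CKO IRI. WT IRI 49 was closer to sham than the other WT IRI libraries, without reaching it. It fell by 1.06 in WT (SE 0.24, limma adjusted p = 0.00649), a call lost without WT IRI 24 (0.0787).

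Gstt1, a theta-class enzyme and the highest of these members, stood at 135, 130.1 and 123 FPKM in WT sham, 170.5, 157 and 187 in CKO sham, 111, 179 and 156 in WT IRI, and 159, 160.3 and 128 in CKO IRI. The injured groups overlapped the sham groups, with changes of 0.17 in WT and -0.21 in CKO. Gstt2, also on chromosome 10, stood at 72.0, 51.6 and 68.8 FPKM in WT sham, 90.5, 77.7 and 78.2 in CKO sham, 84.3, 49.2 and 61.3 in WT IRI, and 44.6, 51.3 and 35.8 in CKO IRI. CKO IRI was below CKO sham in every library, and the WT groups overlapped. Gstt2 fell by 0.90 in CKO (SE 0.23, limma adjusted p = 0.0371) and the WT comparison did not pass (adjusted p = 0.993). The call was lost when CKO sham 2 or 3 or CKO IRI 7 or 29 was omitted, with adjusted p between 0.105 and 0.193. The fall lay mostly in the transcript Gstt2-203, at 37.0, 29.6 and 32.6 FPKM in CKO sham and 1.03, 1.02 and 0.76 in CKO IRI. Gstt2-203 was also at 0.48 FPKM in WT sham 2. The means of Gstt2-208 were 44.0 FPKM in CKO sham and 37.7 in CKO IRI. From WT sham to WT IRI, mean Gstt2-203 went from 19.0 to 37.1 FPKM and mean Gstt2-208 from 40.5 to 19.0. The division of reads between these transcripts was not tested. Gstt3, Gsto1 and Gsto2 had changes between -0.50 and 0.10 and did not pass the test in either genotype.

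The microsomal transferases are membrane proteins of another fold that also reduce lipid peroxides. Mgst3, the highest, stood at 118, 112 and 110.3 FPKM in WT sham, 170.5, 132 and 137 in CKO sham, 59.1, 113 and 142 in WT IRI, and 136, 184 and 118 in CKO IRI. Its CKO sham libraries were above WT sham, and WT IRI spread from below to above sham. Mgst1, from the same group, had means of 55.1 ± 4.84, 69.7 ± 2.64, 76.8 ± 7.17 and 92.0 ± 28.7 FPKM (SD, n = 3) in WT sham, CKO sham, WT IRI and CKO IRI. Its WT change of 0.47 (SE 0.18, limma adjusted p = 0.068) did not pass the test. Mgst2 was listed at 0 in all WT sham libraries and reached 1.03 FPKM in WT IRI 13.

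**Figure D3:**
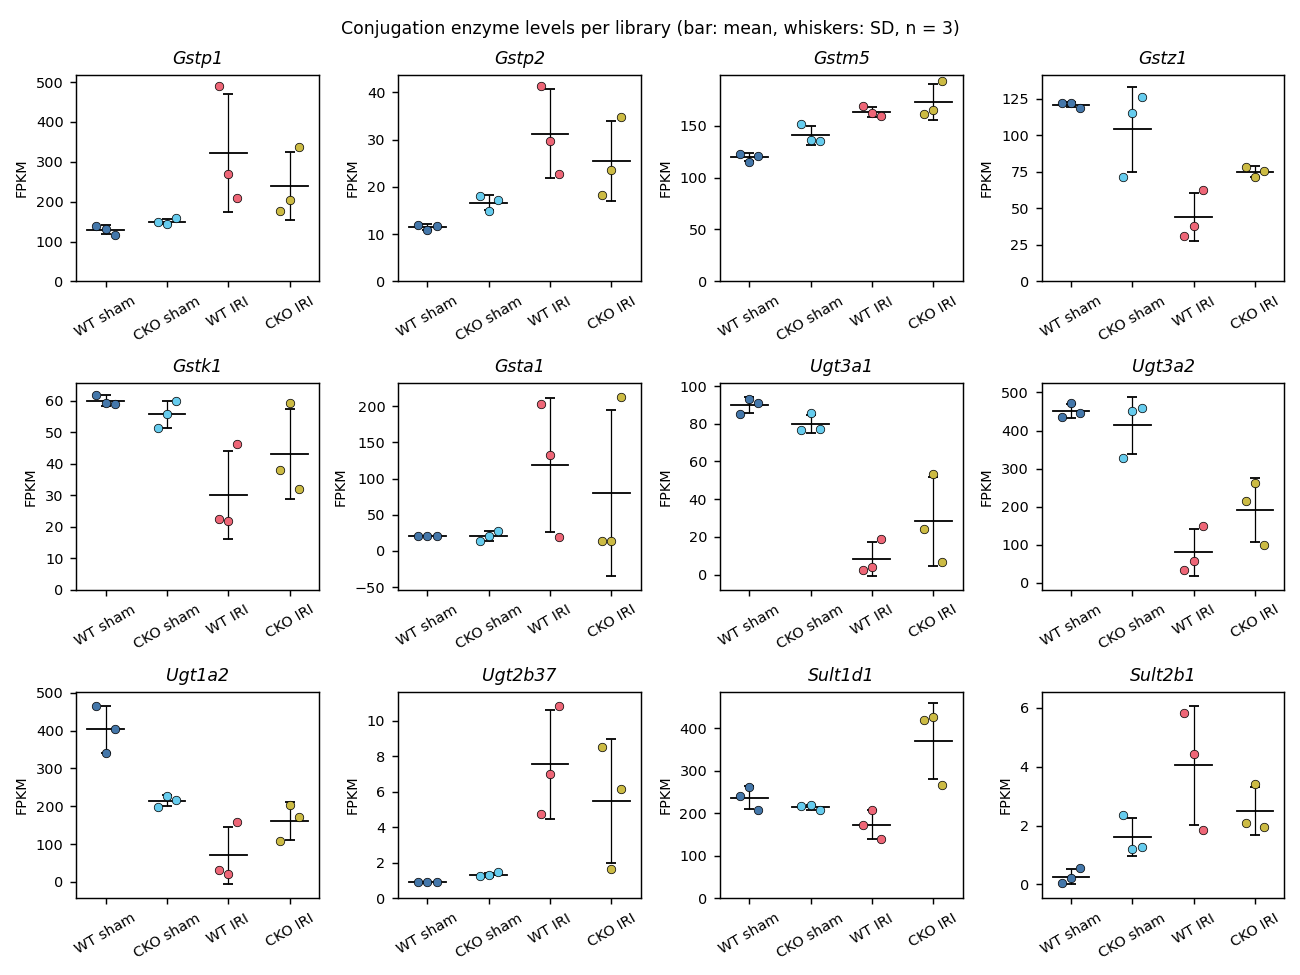
FPKM of 12 members in each library (points), with the mean (bar) and SD (whiskers) of each group of 3 libraries. Gstp1, Gstp2 and Gstm5 are higher and Gstz1, Ugt3a1, Ugt3a2 and Ugt1a2 lower in every WT IRI library than in WT sham, and Gsta1 splits the libraries within each injured group.

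The family of UDP-glucuronosyltransferases held the deepest falls. Of 15 Ugt members tested, 5 fell and 1 rose in WT injury, beside 11.8% and 23.5% of all genes, with a median change of -0.77. In CKO injury none fell and 1 rose, near the 2.02% and 6.6% of all genes, with a median of -0.13. Ugt3a1 and Ugt3a2 belong to a family that uses UDP-sugars other than UDP-glucuronate, and lie side by side on chromosome 15. Ugt3a2 (chr15:9335550-9370955, plus strand) stood at 436, 473 and 445 FPKM in WT sham and at 328, 452 and 459.8 in CKO sham. After injury it stood at 34.0, 56.7 and 149 FPKM in WT IRI and at 215, 262 and 99.2 in CKO IRI. Injured libraries were below all sham libraries in both genotypes. Ugt3a2 fell by 2.75 in WT (SE 0.40, limma adjusted p = 0.000777), and its CKO change was -1.20 (SE 0.39, adjusted p = 0.0804).

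Ugt3a1 (chr15:9276888-9315032, plus strand) stood at 85.3, 93.2 and 91.2 FPKM in WT sham, 76.7, 85.5 and 77.2 in CKO sham, 2.44, 4.05 and 18.7 in WT IRI, and 24.3, 53.4 and 6.68 in CKO IRI. Again all injured libraries were below all sham libraries, with the WT IRI 13 and WT IRI 24 libraries lowest. It fell by 3.70 in WT (SE 0.59, limma adjusted p = 0.00123), and its CKO change was -1.88 (SE 0.57, adjusted p = 0.0661). The 13 proximal tubule markers summed to 1484, 1568 and 4359 FPKM in WT IRI and 4358, 6499 and 2599 in CKO IRI, below the 7831 to 8045 FPKM of WT sham and the 7871 to 9768 FPKM of CKO sham. One marker, Kap, made up 18.2% to 72.2% of that sum. Without Kap, a sum chosen after seeing the data, the other 12 gave 3559 to 3716 FPKM in WT sham, 2714 to 3713 in CKO sham, 1001, 1282 and 2085 in WT IRI, and 2243, 2139 and 1627 in CKO IRI. By both sums, WT IRI 13, WT IRI 24 and CKO IRI 29 were the lowest libraries, as they were for Ugt3a1. Of these markers 12 of 13 fell in WT injury and 3 in CKO injury, and none was listed at 0 in any library. The part of this shift in the members' falls was not tested, and in bulk tissue fewer cells of a type and less RNA per cell cannot be told apart.

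The Ugt1 locus on chromosome 1 makes several enzymes, each from its own leading exon joined to a set of exons that all of them share. Ugt1a2 (chr1:88200601-88218997, plus strand) was the highest, at 465, 342 and 404 FPKM in WT sham and 199, 227 and 217 in CKO sham. After injury it stood at 30.7, 21.8 and 158 FPKM in WT IRI and at 107, 204 and 173 in CKO IRI. Every WT IRI library was below every sham library, and CKO sham was below WT sham throughout. Ugt1a2 fell by 3.05 in WT injury (SE 0.46, limma adjusted p = 0.001), and its CKO injury change was -0.46 (SE 0.45, adjusted p = 0.58). Ugt1a1, the enzyme that conjugates bilirubin, stood at 77.6, 61.7 and 79.2 FPKM in WT sham, 44.2, 26.9 and 33.9 in CKO sham, 14.5, 3.02 and 47.9 in WT IRI, and 8.68, 57.7 and 58.6 in CKO IRI. WT IRI lay below WT sham, while CKO IRI 7 alone lay below CKO sham. It fell by 2.34 in WT (SE 0.72, limma adjusted p = 0.0278), a call lost without WT IRI 13 (0.0704) or WT IRI 24 (0.267).

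The make-up of the locus differed between libraries of the same group. Ugt1a9, Ugt1a6b and Ugt1a5 are named here after their values were seen. Ugt1a9 stood at 9.01, 7.76 and 9.47 FPKM in WT sham but at 8.57, 154 and 147 in CKO sham. After injury it stood at 23.97, 61.6 and 14.7 FPKM in WT IRI and at 126, 11.5 and 18.3 in CKO IRI. CKO sham 2, CKO sham 3 and CKO IRI 7 were far above the rest, and WT IRI 24 came next. Ugt1a6b was high in these 3 libraries too, at 76.7 and 71.3 FPKM in CKO sham 2 and 3 and 31.7 in CKO IRI 7, and it lay between 2.05 and 23.98 FPKM elsewhere. Ugt1a5 was high in CKO sham 2 and 3, at 103 and 133 FPKM, against 33.8 in CKO sham 1. As a share of the Ugt1 sum, Ugt1a9 was 1.3% to 1.5% in WT sham, 23.9% and 21.98% in CKO sham 2 and 3 and 33.6% in CKO IRI 7. It was 37.0% in WT IRI 24, where the Ugt1 sum was low, 15.1% in WT IRI 13, and between 2.6% and 5.2% in the remaining libraries. Ugt1a2 was 59.8% to 68.4% in WT sham and 35.3% and 32.5% in CKO sham 2 and 3.

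The sum over the 8 Ugt1 genes was 680, 571 and 632 FPKM in WT sham, 329, 645 and 668 in CKO sham, 159, 166 and 302 in WT IRI, and 374, 394 and 351 in CKO IRI. WT IRI was thus below WT sham for the locus as a whole, and CKO sham 1 was below the other sham libraries. Shared exons make the division within the locus uncertain: 40.3% to 97.9% of the 50-base stretches of each Ugt1 gene occurred in other genes. Ugt1a6a and Ugt1a6b transcripts were 98.5% identical.

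**Figure D4:**
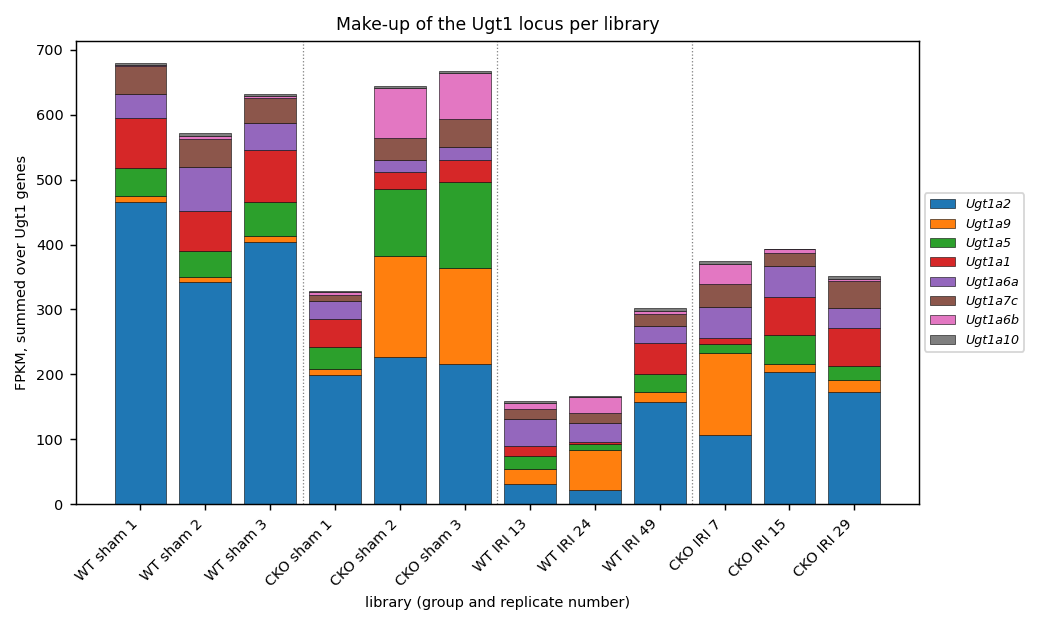
Stacked bars give the FPKM of the 8 Ugt1 genes in each library, in order of their mean level. Ugt1a2 (blue) is the largest part in WT sham, Ugt1a9 (orange) is large in CKO sham 2, CKO sham 3 and CKO IRI 7 and takes the largest share, 37.0%, of the short WT IRI 24 bar, and the bars of WT IRI are shorter than those of WT sham.

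The Ugt2 family includes the Ugt2b enzymes, which conjugate steroids. Of its 4 tested members, 1 rose and 1 fell in WT injury, beside 23.5% and 11.8% of all genes. In CKO injury 1 rose, beside 6.6% of all genes. These counts are too small to be a result about the family. Ugt2b37 stood at 0.94, 0.90 and 0.91 FPKM in WT sham, 1.24, 1.29 and 1.47 in CKO sham, 4.76, 7.01 and 10.8 in WT IRI, and 8.52, 1.68 and 6.18 in CKO IRI. Injured and sham libraries did not overlap, though CKO IRI 15 was close to sham. It rose by 2.09 in WT (SE 0.36, limma adjusted p = 0.00171) and by 1.28 in CKO (SE 0.35, adjusted p = 0.0456), and the CKO call was lost in 14 of the alternatives tried. Ugt2b38, the highest of the family, stood at 76.8, 64.6 and 76.0 FPKM in WT sham, 50.8, 69.0 and 78.1 in CKO sham, 31.5, 47.2 and 49.6 in WT IRI, and 90.1, 41.3 and 66.3 in CKO IRI. WT IRI was below WT sham and the CKO groups overlapped. It fell by 0.77 in WT (SE 0.27, limma adjusted p = 0.0485), a call lost in 9 alternatives, including the omission of WT sham 1, WT sham 3, CKO sham 2, any WT IRI library or CKO IRI 29. Ugt2b37 and Ugt2b38 transcripts were 93.5% identical. Of their 50-base stretches, 18.3% for Ugt2b37 and 37.4% for Ugt2b38 occurred in other genes, most often Ugt2b5. How far reads of its relatives were counted to Ugt2b37 cannot be told from the deposited values. Ugt2b34 changed by -1.13 in WT (SE 0.41, limma adjusted p = 0.0532). Ugt8a, which makes galactosylceramide, stayed at or below 5.77 FPKM.

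Among the sulfotransferases, Sult1d1, an enzyme that sulfates catecholamines and other amines, was the highest and rose after injury in the libraries labelled CKO. It stood at 242, 261 and 207 FPKM in WT sham, 217, 219 and 208 in CKO sham, 172, 209 and 140.3 in WT IRI, and 420.1, 426 and 268 in CKO IRI. The CKO IRI libraries were above all others, and WT IRI overlapped WT sham. Sult1d1 rose by 0.76 in CKO (SE 0.20, limma adjusted p = 0.0387), and its WT change was -0.46 (SE 0.20, adjusted p = 0.101). The CKO call was lost with TMM scaling (0.0679), with only the groups compared in the fit (0.0737), and on omission of WT sham 1, CKO sham 2 or 3, WT IRI 13, or CKO IRI 7 or 15 (0.0537 to 0.237). Sult1c2 stood at 56.1, 56.6 and 55.8 FPKM in WT sham, 53.1, 57.8 and 60.4 in CKO sham, 23.1, 37.2 and 54.6 in WT IRI, and 36.8, 36.2 and 36.7 in CKO IRI. WT IRI 49 was almost at sham level, and CKO IRI was below CKO sham with little spread. It fell by 0.62 in WT (SE 0.19, limma adjusted p = 0.0246), lost without WT IRI 13 (0.118) or WT IRI 24 (0.0977), without weights (0.0547) and with only the groups compared (0.0814). Its CKO change was -0.63 (SE 0.18, adjusted p = 0.0555). Sult1a1 and Sult1b1 did not pass the test in either genotype.

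Of the low sulfotransferases, Sult2b1, which sulfates cholesterol, stood at 0.040, 0.21 and 0.55 FPKM in WT sham, 2.35, 1.20 and 1.27 in CKO sham, 5.84, 4.44 and 1.85 in WT IRI, and 2.099, 3.43 and 1.95 in CKO IRI. The WT sham libraries were below all others, and the injured CKO libraries overlapped CKO sham. It rose by 1.92 in WT (SE 0.34, limma adjusted p = 0.00191), and its CKO change was 0.43 (SE 0.33, adjusted p = 0.466). Sult5a1 stood at 0.91, 1.01 and 0.70 FPKM in WT sham, 0.72, 0.39 and 0.41 in CKO sham, 2.95, 1.49 and 1.63 in WT IRI, and 1.47, 1.15 and 0.47 in CKO IRI. It was higher in WT IRI than in WT sham in every library. It rose by 0.66 in WT (SE 0.22, limma adjusted p = 0.0408), a call lost in 11 alternatives, among them TMM (0.0731) and quantile normalization (0.173), pseudocounts of 0.1 (0.0773) and 0.5 (0.0512), and the omission of any WT IRI library, WT sham 1, WT sham 3 or CKO IRI 15.

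Without injury, no member passed the test between CKO sham and WT sham. Among all genes 0.0401% were higher in CKO sham and 0.0962% lower. At an unadjusted limma p under 0.05, 10 members were higher and 2 lower, beside 9.28% and 8.48% of all genes. In 12 members every CKO sham library was above every WT sham library, and in 3 every one was below, beside 15% and 13.4% of all genes. The 12 were Gstt1, Gstt2, Gstm2, Gstm5, Gstm6, Gstp1, Gstp2, Mgst1, Mgst3, Sult2b1, Ugt2b37 and Ugt8a. Of these 9 were glutathione transferases, which made up 20 Gst and 2 Mgst genes of the 43 members tested. The 3 were Ugt1a1, Ugt1a2 and Ugt1a6a, all of the Ugt1 locus, which had 8 members tested. The differences were 1.03 for Sult2b1 (adjusted p = 0.117), 0.50 for Gstp2 (0.16) and 0.40 for Gstt1 (0.138) on the log2 scale. They were -1.11 for Ugt1a6a (0.12), -1.06 for Ugt1a1 (0.291) and -0.90 for Ugt1a2 (0.198). Without CKO sham 1, 3 members were higher (Ugt1a9 by 3.96, Ugt1a6b by 4.04 and Ugt1a5 by 1.37, adjusted p = 0.0042, 0.00452 and 0.0402) and Ugt1a6a was lower (-1.25, adjusted p = 0.04). In that fit 0.282% of all genes were higher and 0.427% lower. The sham groups of 3 libraries each are also the controls of the injury comparisons, so genes high in CKO sham and those with a smaller CKO injury change draw on the same values.

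After injury, no member passed the test between libraries labelled CKO and WT, where 0.00802% of all genes were higher and 0.00802% lower. At an unadjusted limma p under 0.05, 6 members were higher in CKO IRI and none lower, beside 4.96% and 7.65% of all genes. Those 6 were Sult1d1 (1.08), Ugt1a2 (1.69), Ugt3a2 (1.41), Gstz1 (0.82), Ugt3a1 (1.65) and Ugt2b34 (1.13), with adjusted p between 0.346 and 0.383. In 4 members every CKO IRI library was above every WT IRI library, Gstz1, Gsta3, Sult1d1 and Ugt1a7c, and in 1, Sult5a1, below, beside 7.11% and 11.5% of all genes. The proximal tubule marker sums of these groups overlapped, with and without Kap, and none of the 13 markers passed the test between them. WT IRI 13 and WT IRI 24 were the lowest libraries in both sums, and the part of this in the members' differences was not tested. Without WT IRI 49, Ugt1a2 passed the test (2.55, limma adjusted p = 0.029). In that fit 0.275% of all genes were higher and 0.121% lower.

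The difference between the injury changes of the genotypes, tested as an interaction, did not pass for any member, nor for more than 0.00802% of all genes in either direction. At an unadjusted limma p under 0.05, 9 members had a positive difference and 3 a negative one, beside 7.39% and 10.3% of all genes. The 9 were Ugt1a2 (2.59), Ugt1a1 (2.22), Ugt3a1 (1.82), Ugt1a7c (1.58), Ugt3a2 (1.55), Ugt1a6a (1.48), Ugt2b34 (1.26), Sult1d1 (1.21) and Gstz1 (1.07). Of these 7 were Ugt genes, as were 15 of the 43 members tested. The 3 were Sult2b1 (-1.50), Gstt2 (-0.90) and Gstp2 (-0.79). Without WT IRI 49, the difference of Ugt1a2 passed the test (3.45, limma adjusted p = 0.0115). In that fit 0.202% of all genes had a positive and 0.113% a negative difference that passed. With 1 weight per library, 5 members passed with a positive and 2 with a negative difference, beside 2.78% and 3.96% of all genes.

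Genes that supply, trim and export the conjugates were counted on lists of their own. Beside these counts, 23.5% of all genes rose and 11.8% fell in WT injury, and 6.6% and 2.02% in CKO injury. In WT injury, 11 of 17 mercapturate pathway genes fell and 2 rose, with a median change of -1.17, and 5 of 12 conjugate transporters fell and 1 rose. The falls included Dpep1 (-1.59), Ggt1 (-1.43) and Anpep (-1.06), peptidases that cut glutathione conjugates at the brush border, and the transporters Abcc3 (-2.80), Slc22a8 (-2.17) and Slc22a6 (-1.48), the last 2 being on the proximal tubule list as well. Nat8f5, of the family that acetylates cysteine conjugates, rose by 1.87 in WT and by 1.46 in CKO, and its other called relatives fell. In CKO injury, 3 mercapturate genes fell and 1 rose, and 3 transporters fell.

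The donor pathways were smaller lists with fewer calls. For these lists and those that follow, 23.5% of all genes rose and 11.8% fell in WT, and 6.6% and 2.02% in CKO. Of 8 tested genes of sulfate and PAPS supply, 3 fell in WT, the PAPS synthase Papss2 (-1.63), Bpnt1 (-1.22) and the sulfate transporter Slc26a1 (-0.94), and 1 rose, the PAPS transporter Slc35b2 (0.49), which also rose in CKO (0.39). Of 5 genes listed under UDP-glucuronate supply, Ugp2 and Slc35a3 fell in WT (both -0.72) and none passed the test in CKO. Slc35a3 mainly carries another UDP-sugar, so its fall is not one of UDP-glucuronate supply. Slc35d1 of the same list changed by -0.29 in WT (limma adjusted p = 0.0821). Of 7 tested genes of glutathione synthesis and recycling, Ggct fell (-1.27 in WT, -1.09 in CKO) and G6pdx rose (0.70 and 0.93). The NRF2 target list, without the glutathione genes, had 6 of 15 genes higher and 1 lower in WT and 4 higher in CKO, with medians of 0.49 and 0.51. Cbr3, a carbonyl reductase, rose by 2.21 in WT and by 2.70 in CKO, and Pgd, of the pentose phosphate pathway, by 0.99 and 0.96. Ephx1, the microsomal epoxide hydrolase, rose by 0.68 in WT, and Me1, the cytosolic malic enzyme, was the gene that fell (-0.83 in WT). Among 18 tested regulators, 3 rose and 3 fell in WT and 2 rose in CKO, with medians of -0.15 and 0.18. Maff (2.19 and 1.48) and Cebpb (2.06 and 1.56) rose in both genotypes. Hnf4a, a nuclear receptor of proximal tubule and liver, was among those that fell in WT (-0.86). No gene of these lists passed the test between genotypes or in the interaction.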

How the data were processed

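The authors deposited 1 table of 25790 transcripts in 12 libraries, read here as FPKM; its header names no unit, and TPM would differ by 1 factor per library. The authors' tools were HISAT2 2.1.0, StringTie and cutadapt with build GRCh38, per the submitters' processing notes, although the identifiers are of mouse. Per the labels' protocols, libraries were strand-marked with dUTP. In every deposited row at least 1 group mean is 0.5 FPKM or more, so lower transcripts were not analysed here.

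Identifiers were matched to GENCODE M21 (25740 matched, and the 50 others held at most 0.103% of a library), and FPKM was summed per gene. Genes that reached 1 FPKM in 3 or more libraries were fitted with limma 3.58.1 in R 4.3.3 on log2(FPKM + 1), with 4 group means, a mean-variance trend and 1 weight per group, since spread differed between groups (median SD per gene 0.098, 0.168, 0.274 and 0.227 on the log2 scale in WT sham, CKO sham, WT IRI and CKO IRI). Adjusted p-values are Benjamini-Hochberg over all 12469 genes within each of 5 contrasts. Alternatives changed the pseudocount, filter, scaling (trimmed mean of M values, TMM, and others), weights and libraries used. No count test was possible and the depth is unknown.

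The members and gene lists were chosen with earlier results of these data known. Named with every library's value were members that passed the test in groups that did not overlap, and the highest member of each family; of each pathway list, at most 4 genes with the smallest p in WT injury were named. Start windows are from RefSeq. Some results are not reported here. Shared stretches are 50-base words of a gene's transcripts found in another gene.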

Additional observations from a re-analysis of the deposited data

How the results depend on the processing

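Of the 19 changes that passed the test, 8 passed it under each alternative that tested them (all in WT injury: Gstp1, Gstp2, Gstz1, Sult2b1, Ugt1a2, Ugt2b37, Ugt3a1 and Ugt3a2), the other 11 were lost under at least 1, and none reversed. A filter of 5 FPKM left 34 members, with 4 rises in WT injury and 1 in CKO injury, beside 24.7% and 6.49% of all genes. With TMM scaling the members' median was -0.328 in WT and -0.074 in CKO injury. CKO injury then had 0 rises and 2 falls, beside 5.38% and 2.86% of all genes. Quantile normalization gave 1 and 2 there, beside 5.01% and 3.13%. Rescaling each library to the same total gave medians of 0.048 in CKO injury and 0 between sham groups. Without weights 1 member rose in CKO injury, beside 5.7% of all genes. With only the groups compared 0 rose and 2 fell there, beside 3.26% and 0.978%. With 1 weight per library, 14 members fell in WT injury, beside 15.7% of all genes. For CKO injury that fit gave 9 rises and 10 falls, beside 18.2% and 10.2% of all genes. It gave 2 members higher and 1 lower in CKO sham, beside 0.449% and 0.545%. After injury 4 were higher in CKO IRI than in WT IRI, beside 2.57%. In the interaction 5 positive and 2 negative differences passed, beside 2.78% and 3.96%. Leaving out single libraries gave 4 to 9 rises, 4 to 12 falls and medians of -0.313 to -0.129 in WT injury. In CKO injury it gave 0 to 3 rises, 0 to 7 falls and medians of -0.121 to 0.093. Between sham groups it gave 0 to 3 higher, 0 to 1 lower and medians of -0.017 to 0.126. Between injured groups it gave 0 to 1 higher, 0 lower and medians of 0.161 to 0.309. For the interaction it gave 0 to 1 positive, 0 negative and medians of -0.047 to 0.112. Calls over all genes moved in these fits too. In WT injury 11% to 23.2% of all genes rose and 3.88% to 12.3% fell, and in CKO injury 1.79% to 9.47% and 0.241% to 4.01%. Between sham groups 0% to 0.282% were higher and 0% to 0.427% lower. Between injured groups at most 0.275% and 0.121% were, and for the interaction at most 0.202% and 0.113%. The cause of these moves was not tested. Sham libraries share only a number: same-numbered deviations correlated at 0.004, -0.031 and -0.002. A replicate block on the sham libraries gave 0 members higher and 0 lower, beside 0% and 0% of all genes. Depth is unknown, so the counting error of low members such as Sult5a1 cannot be given.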

Other observations

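Gstp1 made up 89.1% to 92.2% of the pi-class FPKM in every library, injured or not. Sult1d1 made up 83.2% to 85.2% of the Sult1 FPKM in the libraries labelled CKO IRI and 66.5% to 78.2% in all others. Gsta1 made up 19.1% and 19.4% of the alpha-class FPKM in WT IRI 13 and 24 and 15.9% in CKO IRI 29, against 1.73% to 3.57% elsewhere.

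Proteins that share the glutathione transferase fold or the membrane fold of the microsomal enzymes but lie outside the symbol rule were counted separately. Of 10 tested, 3 rose and 2 fell in WT injury, beside 23.5% and 11.8% of all genes. In CKO injury 3 rose and 1 fell, beside 6.6% and 2.02% of all genes. Clic1, an intracellular chloride channel protein, rose by 1.67 in WT and by 0.81 in CKO. Clic5 fell by 1.22 and Ptges2, a membrane-bound prostaglandin E synthase, by 0.46 in WT, and Gstcd rose by 0.67 in WT and by 0.71 in CKO.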
